A study of Mus musculus with 12 samples.

Results

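The interleukin-1 genes described here were Il1a and Il1b, which encode the ligands interleukin-1 alpha and interleukin-1 beta; Il1rn, the receptor antagonist; Il18 and its binding protein Il18bp; and the receptor genes Il1r1, Il1r2 and Il1rap. They were found as the array probes whose gene name was one of these 8 names or an older alias, which gave 16 probes for the 8 genes, among 27669 genes named on the array. All 8 passed the filter on dim probes and were among the 16744 genes tested.

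RNA came from peritoneal macrophages of female mice aged 10 weeks, collected 96 h after a thioglycollate injection. Every culture was loaded with cholesterol (10 µg/ml) overnight and then kept in medium with polymyxin B (25 µg/ml), which binds endotoxin. The question of the series was which transcripts apolipoprotein A-I (apoA-I), which carries much of the cholesterol leaving cells as the chief protein of high-density lipoprotein, changes in such cells and how far this depends on MyD88. There were 4 groups of 3 arrays: MyD88-null cells given apoA-I (10 µg/ml) for 2 h, MyD88-null control cells at 2 h, C57BL/6 cells given apoA-I at the same dose and time, and C57BL/6 control cells at 2 h. A rest of 30 min was listed with the apoA-I step for treated cultures other than MyD88-null replicate 2, and was not assigned to control cultures. Its part in the apoA-I changes was not tested. The series' design gives 3 experiments of 4 samples. The main fit does not pair samples by replicate number, and results with replicate number as a block are named as such. The labels name no animal, pool or litter. The p-values therefore rest on how these samples varied, and that variation may be technical. No promoter or cell type is given for the MyD88 deletion.

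Interleukin-1 alpha and beta bind the receptor encoded by Il1r1, which then pairs with the accessory protein encoded by Il1rap and signals through the adaptor MyD88. Il1r2 encodes a decoy receptor that binds ligand without signalling, and the antagonist encoded by Il1rn occupies the receptor without activating it. Interleukin-1 beta and interleukin-18 are made as precursors that caspase-1 cuts, and macrophages are a main source of interleukin-1 beta once Toll-like receptors or similar sensors are engaged.

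The sequence before the start site is shown for Il1a and Il1b, the genes that changed most, and for the first of 3 listed starts of Il1rn, which is described with them. Each line gives the 250 bases before the start from RefSeq (GRCm38.p6), read along the gene's strand: Il1a from chr2:129309973-129310222 on the minus strand, Il1b from chr2:129371140-129371389 on the minus strand and Il1rn from chr2:24336610-24336859 on the plus strand. Capitals mark matches to the motifs searched on both strands.
Il1a: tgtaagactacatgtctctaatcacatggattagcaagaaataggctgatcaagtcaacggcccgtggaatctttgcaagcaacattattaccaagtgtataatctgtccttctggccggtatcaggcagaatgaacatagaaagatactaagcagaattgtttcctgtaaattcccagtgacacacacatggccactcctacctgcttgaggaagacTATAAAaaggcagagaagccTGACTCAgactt
Il1b: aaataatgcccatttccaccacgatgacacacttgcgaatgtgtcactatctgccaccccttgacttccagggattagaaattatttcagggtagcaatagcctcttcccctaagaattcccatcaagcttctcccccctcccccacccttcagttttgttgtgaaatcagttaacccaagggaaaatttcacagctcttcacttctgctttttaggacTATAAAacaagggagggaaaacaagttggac
Il1rn: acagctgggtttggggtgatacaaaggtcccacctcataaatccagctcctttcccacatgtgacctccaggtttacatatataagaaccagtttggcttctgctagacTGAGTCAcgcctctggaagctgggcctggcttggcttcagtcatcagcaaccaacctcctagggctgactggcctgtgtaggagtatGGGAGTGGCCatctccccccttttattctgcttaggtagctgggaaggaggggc
Il1a held the AP-1 letters TGANTCA at positions -12 to -6 and TATAAA at -32 to -27. Il1b held TATAAA at -31 to -26 and none of the other motifs searched. The first Il1rn start held the kappaB letters (3 G, any 5 bases, 2 C) at -54 to -45 and the AP-1 letters at -141 to -135. Of the starts not shown, start 2 held none of the motifs searched. Start 3 held the kappaB letters at -51 to -42 and no AP-1 letters. Which start these cells used was not tested. Among all 32851 windows of this length, 12.4% held TATAAA, 6.75% the AP-1 letters, 45.8% the kappaB letters, 3.86% a tighter kappaB form (3 G and an A, any 3 bases, a T and 2 C), 9.56% the C/EBP letters TTGCNNAA and 2.98% the interferon response letters (a G and 3 A, any 2 bases, a G and 3 A). TATAAA was added to the search after the sequences were seen. These matches describe letters in the windows and were not tested as sites.

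Il1a and Il1rn were each read by a pair of probes, 1 of which crosses an intron. Those 60-base probes are shown because their values are set beside the other probe of each gene. They are given as the array files print them, with mm7 coordinates: A_51_P438283 of Il1a at chr2:129043842-129045576 on the minus strand, a span of 1735 bases, and A_51_P307166 of Il1rn at chr2:24354826-24355846 on the plus strand, a span of 1021 bases.
A_51_P438283: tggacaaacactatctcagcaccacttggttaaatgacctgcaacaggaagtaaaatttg
A_51_P307166: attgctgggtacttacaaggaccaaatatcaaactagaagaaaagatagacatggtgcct

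Values below are log2 processed intensities relative to the 75th percentile of the probes on the same array, so that 0 is the brightness of that percentile, and levels are compared only within a probe. The 75th percentile lay between 199.5 and 1408 intensity units over the 12 arrays, 57.6% to 73.6% of probes were well above background, and the number of arrays limits the precision. The descriptions of 2 samples conflict with their titles: that of C57BL/6 control replicate 2 includes the apoA-I step and that of MyD88-null apoA-I replicate 2 leaves it out. Titles and source names were followed here. Myd88 itself read 2.75, 3.25 and 2.43 in apoA-I-treated MyD88-null cells and 1.87, 2.10 and 1.40 in MyD88-null control cells, against 4.17, 4.29 and 3.41 in apoA-I-treated C57BL/6 cells and 3.48, 3.49 and 2.96 in C57BL/6 control cells. It was lower in null cells by a log2 change of -1.15 with apoA-I (adjusted p = 0.942, 0.0244 with replicate number as a block) and of -1.52 in control cells (adjusted p = 0.215, 0.00397 with the block), and whether its probe lies in the deleted part was not tested. All 8 macrophage markers were well above background on all 12 arrays.

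Il1a and Il1b were higher with apoA-I in both genotypes, and both were lower in MyD88-null than in C57BL/6 cells with apoA-I. Il1b was also called lower in MyD88-null control cells, where it was not well above background. That last call was lost in some other settings. A gene was called at an adjusted p under 0.05 in limma. The 8 genes were chosen with earlier results of these data known. The shares of all genes are therefore given beside the counts and do not test the list. In MyD88-null cells 2 of the 8 genes were called higher with apoA-I and none lower, where 1.14% of all genes tested were called and 1.13% were called higher. In C57BL/6 cells 2 of 8 were called higher, against 0.83% of all genes called and 0.812% higher. Between genotypes, 2 of 8 were called lower in MyD88-null cells with apoA-I (0.0657% of all genes called, 0.0478% lower), and 1 of 8 in MyD88-null control cells (0.0956% called, 0.0776% lower). With replicate number as a block the same counts of the 8 were called, while the share of all genes called was 4.07% and 3.4% for the responses of null and C57BL/6 cells, and 0.227% and 0.591% between genotypes with apoA-I and in control cells. For the difference of the apoA-I responses, 0 of 8 and 0% of all genes were called in limma. An unadjusted p under 0.05 was found for 196 genes, 1.17% of those tested. That is a smaller share than this threshold passes when no response differs. With treatments taken from the conflicting descriptions instead of the titles, 0 of the 8 were called in any of these comparisons, and without both of those samples the counts were again 2, 2, 2, 1 and 0.

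**Figure D1:**
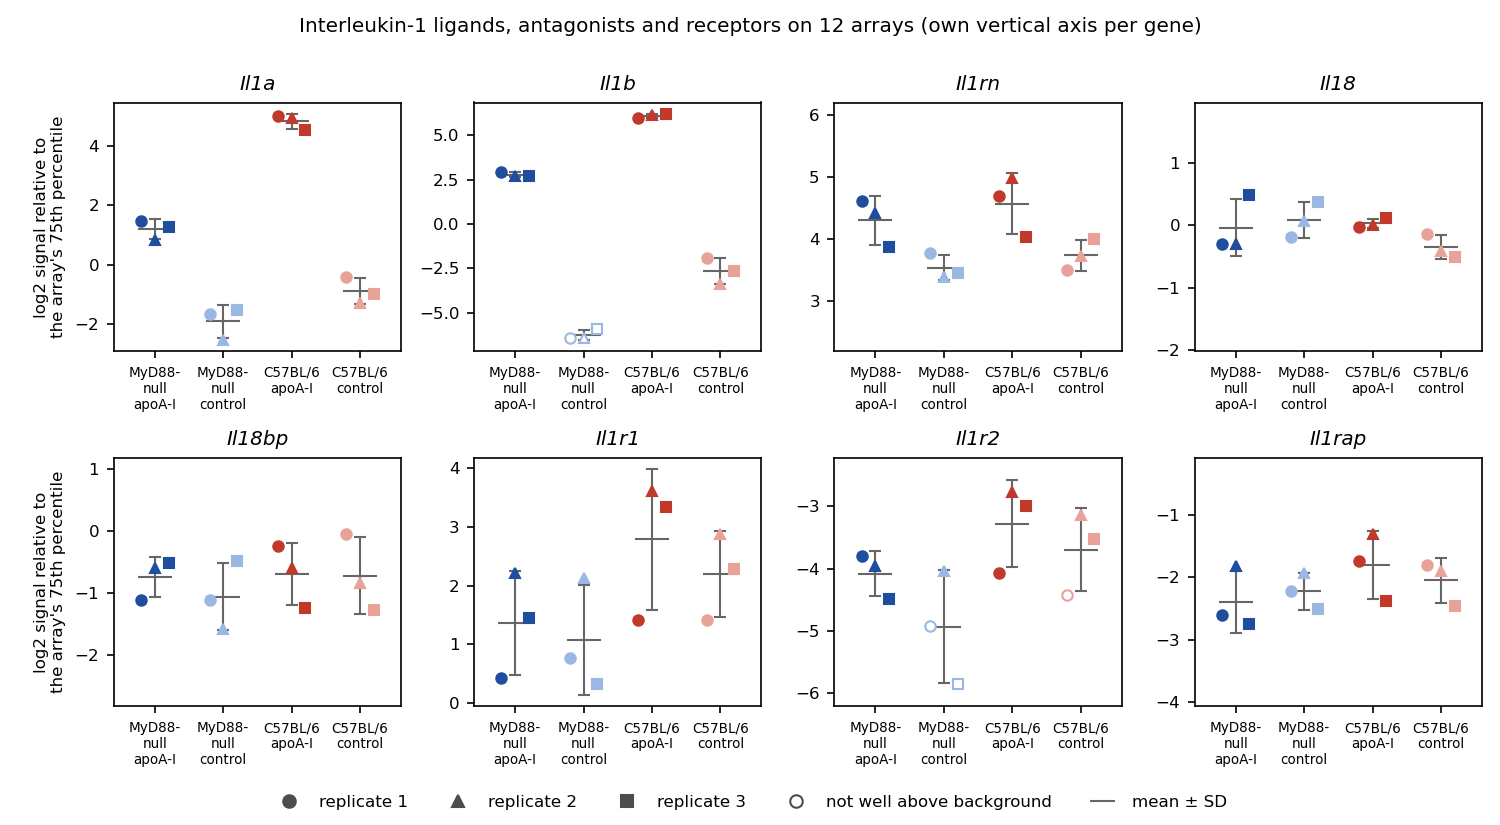
Scaled log2 signal, set to 0 at the 75th percentile of each array (vertical axis, its own range per gene) for the 8 genes in MyD88-null cells with apoA-I, MyD88-null control cells, C57BL/6 cells with apoA-I and C57BL/6 control cells. Points are arrays, bars are the mean ± SD (n = 3) and open points were not well above background. The 4 groups do not overlap for Il1a and Il1b, and neighbouring groups overlap for the other 6 genes.

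Il1b encodes the secreted ligand that needs cleavage before it acts. Its single probe (NM_008361, chr2:129105464-129105523 on the minus strand in mm7) read 2.96, 2.69 and 2.72 in apoA-I-treated MyD88-null cells, against -6.42, -6.41 and -5.91 in MyD88-null control cells, none of which was well above background. The probe read 5.99, 6.16 and 6.18 in apoA-I-treated C57BL/6 cells, against -1.90, -3.35 and -2.65 in C57BL/6 control cells. Every culture given apoA-I was above every control culture, and no pair of groups overlapped. Over all genes, apoA-I and control groups did not overlap, in either direction, for 11.6% in null cells and 13.1% in C57BL/6 cells. Between genotypes that share was 5.62% with apoA-I and 10.3% in control cells. Unscaled, the probe's intensity was 1557, 2392 and 6160 in apoA-I-treated MyD88-null cells, against 4.06, 7.40 and 20.9 in MyD88-null control cells. In C57BL/6 cells the intensity was 20690, 24428 and 43954 with apoA-I, against 88.2, 38.1 and 223.7 in control cells. The control intensities of null cells thus have only an upper bound.

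On this scaling Il1b with apoA-I was at least 211-fold higher than in control cells of the MyD88-null genotype (adjusted p = 1.10e-06 in limma) and 430-fold higher in C57BL/6 cells, a log2 change of 8.75 (SE 0.326, 95% interval 8.02 to 9.47, adjusted p = 1.52e-06). "At least" here sets the bright group's mean against the lowest signal measured well above background on the dim arrays, and it holds for this background handling only: after normexp correction the fitted log2 change in null cells was 5.81, which is under that bound. Between genotypes, Il1b was 10.0-fold lower in MyD88-null than in C57BL/6 cells with apoA-I (log2 change -3.32, adjusted p = 0.00281) and, on this scaling, at least 4.91-fold lower in MyD88-null control cells (adjusted p = 0.00302). That difference was smaller than this bound and not called after normexp background correction (log2 change -1.28, adjusted p = 0.575), nor was it called in a fit of those 2 groups alone (adjusted p = 0.230). The difference of responses, null minus C57BL/6, had a fitted log2 value of 0.29 (SE 0.461, adjusted p = 1.00), which rests on control values below background. It was -2.03 after normexp, -0.37 on the deposited values, -0.10 with median scaling and -0.078 with quantile normalization, so neither its sign nor its size was settled. In C57BL/6 cells the apoA-I change was 7.89 to 9.52 within slides and 8.70 to 8.84 within scan days; in null cells no within-batch difference could be measured against controls below background.

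Il1a encodes the ligand that is active without cleavage and can stay in the cell or at its surface. The probe that represents it (NM_010554, chr2:129041111-129041170 on the minus strand in mm7) read 1.49, 0.84 and 1.27 in apoA-I-treated MyD88-null cells, against -1.68, -2.54 and -1.52 in MyD88-null control cells. It read 5.00, 4.95 and 4.54 in apoA-I-treated C57BL/6 cells, against -0.42, -1.28 and -0.98 in C57BL/6 control cells. No groups overlapped: null cells with apoA-I lay above both sets of control cells and below C57BL/6 cells with apoA-I. The mean was 1.20 ± 0.328 in MyD88-null cells with apoA-I, -1.91 ± 0.549 in MyD88-null control cells, 4.83 ± 0.256 in C57BL/6 cells with apoA-I and -0.89 ± 0.439 in C57BL/6 control cells (SD, n = 3 each).

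The apoA-I change of Il1a was 3.11 on the log2 scale in MyD88-null cells (8.66-fold, SE 0.330, adjusted p = 0.000785 in limma) and 5.72 in C57BL/6 cells (52.8-fold, SE 0.330, adjusted p = 2.37e-05). By replicate number it was 3.16, 3.38 and 2.80 in null cells and 5.42, 6.24 and 5.51 in C57BL/6 cells, so each null pair changed less than each C57BL/6 pair. The difference of these responses was -2.61 (SE 0.467, 95% interval -3.65 to -1.57), with an unadjusted p of 0.00022, an adjusted p of 0.481 in limma, and 0.167 with the replicate block. It was therefore not called over all genes. With apoA-I, Il1a was 12.4-fold lower in MyD88-null than in C57BL/6 cells (log2 change -3.63, adjusted p = 0.00224 in limma). In control cells the change between genotypes was -1.02 (unadjusted p = 0.0112, adjusted p = 0.979, 0.161 with the block), and those groups did not overlap, as for 10.3% of all genes. With apoA-I, 5.62% of all genes had genotype groups that did not overlap. Within slides and within scan days the apoA-I change of Il1a was 2.52 to 4.03 in null cells and 5.42 to 6.24 in C57BL/6 cells, and the change between genotypes with apoA-I was -4.14 to -3.26.

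The intron-crossing Il1a probe read 0.86, 0.76 and 0.37 in apoA-I-treated MyD88-null cells, against -1.83, -2.40 and -2.32 in MyD88-null control cells. It read 4.59, 4.86 and 3.59 in apoA-I-treated C57BL/6 cells, against -0.78, -1.29 and -2.03 in C57BL/6 control cells. Its changes with apoA-I were 2.85 in null cells (adjusted p among probes 0.00489) and 5.71 in C57BL/6 cells (8.17e-05), close to those of the first probe. The null change against C57BL/6 was -3.68 with apoA-I (adjusted p among probes 0.00574) and -0.81 in control cells, where the groups overlapped.

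**Figure D2:**
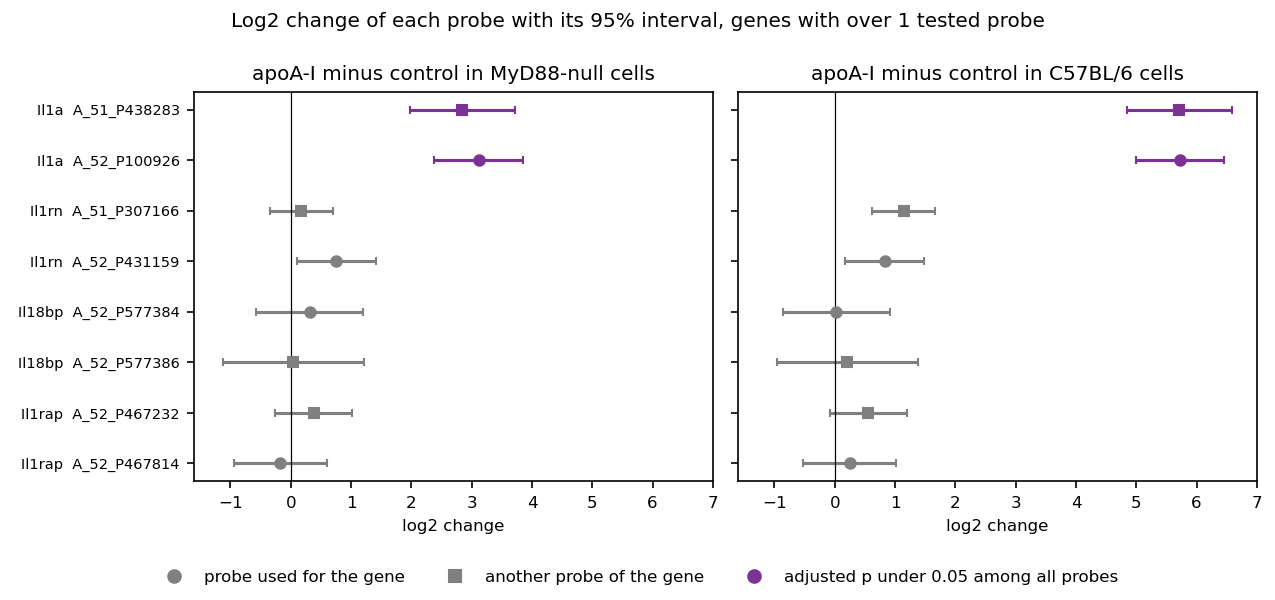
Log2 change with apoA-I (horizontal axes) of each tested probe, with its 95% interval, for the 4 genes that had more than 1 tested probe. Circles are the probes that represent a gene, squares are other probes, and purple marks an adjusted p under 0.05 among all probes. The Il1a probes have overlapping intervals (3.11 and 2.85 in MyD88-null cells, 5.72 and 5.71 in C57BL/6 cells), and the Il1rn probes, at 0.76 and 0.18 in null cells, do so too.

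Il1rn encodes the receptor antagonist. Its representing probe read 4.61, 4.41 and 3.87 in apoA-I-treated MyD88-null cells, against 3.77, 3.39 and 3.45 in MyD88-null control cells. It read 4.69, 4.98 and 4.03 in apoA-I-treated C57BL/6 cells, against 3.50, 3.72 and 4.00 in C57BL/6 control cells. The apoA-I cultures lay above their own controls in both genotypes without overlap, as 11.6% of all genes did, in either direction, in null cells and 13.1% in C57BL/6 cells. The changes were 0.76 in null cells (SE 0.294, adjusted p = 0.465 in limma) and 0.83 in C57BL/6 cells (SE 0.294, adjusted p = 0.428), so neither was called. With slide as a random block the C57BL/6 change was 1.02 with an adjusted p of 0.0275.

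The intron-crossing Il1rn probe read -1.01, -0.37 and -0.54 in apoA-I-treated MyD88-null cells, against -0.95, -0.87 and -0.64 in MyD88-null control cells, which overlapped. In C57BL/6 cells it read 0.14, 0.15 and -0.29 with apoA-I, against -1.09, -1.35 and -0.98 in control cells, which did not. Its change was 0.18 in null cells (adjusted p among probes 0.875) and 1.14 in C57BL/6 cells (2.21-fold, SE 0.234, adjusted p among probes 0.0661, and 0.0303 with the replicate block). The 2 probes of Il1rn gave 0.76 and 0.18 in null cells, with overlapping 95% intervals, and the difference of responses on the second probe was -0.96 (unadjusted p = 0.0148, adjusted p among probes 1.00).

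Il18 encodes a ligand of the same family that acts with interleukin-12 on lymphocytes. Its probe read -0.29, -0.31 and 0.49 in apoA-I-treated MyD88-null cells, against -0.19, 0.07 and 0.38 in MyD88-null control cells. It read -0.02, 0.01 and 0.12 in apoA-I-treated C57BL/6 cells, against -0.14, -0.41 and -0.51 in C57BL/6 control cells. The C57BL/6 groups did not overlap, as for 13.1% of all genes in either direction. The change of 0.39 (SE 0.256, unadjusted p = 0.161 in limma) was not called, and that in null cells was -0.12. Il18bp, which encodes the soluble protein that binds interleukin-18, ranged from -1.57 to -0.05 over the 12 arrays. Its apoA-I changes were 0.31 in null cells and 0.03 in C57BL/6 cells (SE 0.397), and its second probe gave 0.05 and 0.21. None of these was called.

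Il1r1, the signalling receptor gene, read 0.43, 2.21 and 1.45 in apoA-I-treated MyD88-null cells, against 0.77, 2.13 and 0.33 in MyD88-null control cells. It read 1.41, 3.61 and 3.33 in apoA-I-treated C57BL/6 cells, against 1.42, 2.87 and 2.28 in C57BL/6 control cells. Replicate 1 was low in both C57BL/6 groups and all groups overlapped. The apoA-I changes of 0.29 in null cells and 0.59 in C57BL/6 cells (SE 0.705) were not called. Null cells were lower than C57BL/6 cells in all 6 same-number pairs, by -0.98, -1.40 and -1.88 with apoA-I and by -0.65, -0.74 and -1.95 in control cells. The mean changes of -1.42 with apoA-I (adjusted p = 0.998 in limma, 0.202 with the block) and -1.11 in control cells (adjusted p = 1.00, 0.312 with the block) were not called.

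Il1r2, the decoy receptor gene, was dim: its representing probe was well above background on 9 of 12 arrays. It read -3.80, -3.95 and -4.49 in apoA-I-treated MyD88-null cells, against -4.92, -4.03 and -5.85 in MyD88-null control cells. It read -4.07, -2.77 and -2.99 in apoA-I-treated C57BL/6 cells, against -4.43, -3.14 and -3.52 in C57BL/6 control cells. The apoA-I changes were 0.85 in null cells and 0.42 in C57BL/6 cells (SE 0.518), neither called. Its other probe was above background on 0 arrays. Il1rap, the accessory receptor gene, had 5 probes, of which its representing probe ranged from -2.74 to -1.30. The apoA-I changes on that probe were -0.17 in null cells and 0.25 in C57BL/6 cells (SE 0.348). A second Il1rap probe, above background on 10 arrays, gave 0.38 and 0.56, and the other 3 were above background on 0 to 2 arrays.

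Il1r1 was set beside markers of other cells that peritoneal lavage can hold. All 10 mesothelial and fibroblast markers were above background on 12 arrays, and the log2 of their summed signal was 6.05, 7.64 and 6.76 in apoA-I-treated MyD88-null cells and 6.08, 7.87 and 5.79 in MyD88-null control cells. It was 6.40, 7.97 and 7.70 in apoA-I-treated C57BL/6 cells and 6.08, 7.86 and 7.36 in C57BL/6 control cells. Arrays with a higher sum tended to have higher Il1r1, but not throughout. Control replicate 1 had a sum of 6.08 in both genotypes, with Il1r1 at 0.77 in null cells and 1.42 in C57BL/6 cells. MyD88-null control replicate 2 had a sum of 7.87 and Il1r1 at 2.13. In C57BL/6 control cells, replicate 2 had 7.86 and 2.87, and replicate 3 had 7.36 and 2.28. Between genotypes, 1 of the 10 markers was called lower in null control cells with the replicate block, and 0 without it. The part of these cells in the Il1r1 values was not tested. In bulk RNA, fewer cells of a type and less RNA per cell cannot be told apart.

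**Figure D3:**
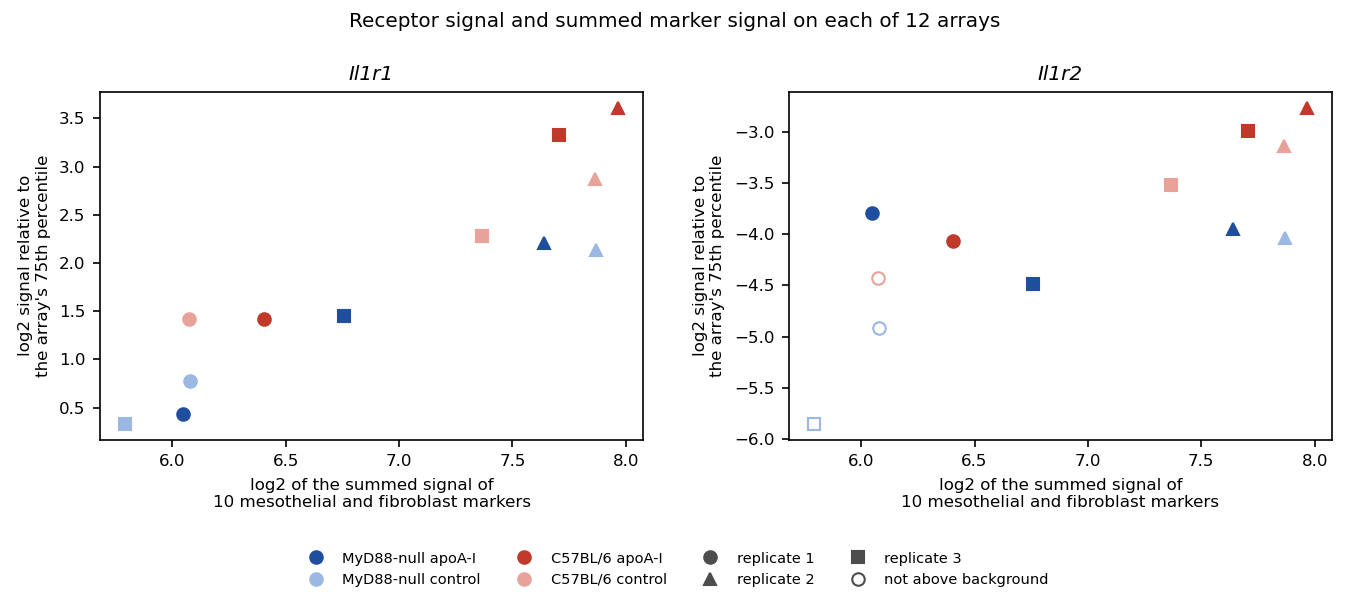
Scaled log2 signal of Il1r1 and Il1r2 (vertical axes) against the log2 summed signal of 10 mesothelial and fibroblast markers (horizontal axes) on 12 arrays, coloured by group. Il1r1 is highest, at 3.61, on the array with the highest sum, 7.97, and lowest, at 0.33, on that with the lowest sum, 5.79. Between these ends Il1r1 does not follow the order of the sums throughout.

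Markers of other cells were set beside Il1a and Il1b too. Of 10 neutrophil markers, 9 were on the array and 6 were tested, none was called, and the summed level was 1.27 to 1.73 in MyD88-null cells with apoA-I, 1.27 to 1.56 in MyD88-null control cells, 1.11 to 1.55 in C57BL/6 cells with apoA-I and 1.22 to 1.68 in C57BL/6 control cells. The granule genes Elane and Ngp were each above background on 1 array and Camp on 4. All 6 mast cell markers were above background on 12 arrays, and their sum was 1.41 to 2.04 in MyD88-null cells with apoA-I and 1.29 to 2.07 in MyD88-null control cells, below 2.54 to 2.69 in C57BL/6 cells with apoA-I and 2.13 to 2.48 in C57BL/6 control cells. No mast cell marker was called, and their part in the genotype differences of Il1a and Il1b was not tested. Of 5 resident peritoneal macrophage markers 4 were tested, and their sum was 6.37 to 6.72 in MyD88-null cells with apoA-I against 4.95 to 5.56 in control cells, and 6.76 to 7.22 in C57BL/6 cells with apoA-I against 5.25 to 5.60 in control cells. The median change of the 4 was 0.76 in null cells, with 4 positive, and 0.06 in C57BL/6 cells, with 2 positive. Among them F10, the coagulation factor X gene, was called, with apoA-I changes of 1.43 in null cells (adjusted p = 0.0185) and 1.69 in C57BL/6 cells (adjusted p = 0.00907), and the other 3 were not (-0.13 to 0.18 in C57BL/6 cells, 0.00 to 1.00 in null cells).

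Further marker lists had no gene called with apoA-I without the replicate block. All 4 dendritic cell markers had a positive change in null cells (median 0.76), where Zbtb46 was called with the block (change 2.19, adjusted p = 0.362 in limma, 0.0239 with the block), and 3 of 4 in C57BL/6 cells (median 0.57). All 6 tested T cell markers had a positive change in null cells (median 0.82), where Lck was called with the block (change 0.84, adjusted p = 0.345, 0.0215 with the block), and 5 of 6 in C57BL/6 cells (median 0.23). The summed T cell level was 0.14 to 1.56 in apoA-I-treated null cells against -0.55 to 0.75 in null control cells, and that of dendritic cell markers 0.21 to 1.78 against -0.57 to 1.18, so the groups overlapped. Over all genes tested, the 5th and 95th percentiles of the apoA-I change were -0.57 and 1.42 in null cells. In C57BL/6 cells they were -0.74 and 0.86, so changes over all genes reached further upward in null cells. The highest T cell sum was that of MyD88-null apoA-I replicate 1, the array of lowest 75th percentile, and the part of that array was not tested. The macrophage gene Cd14 was called in C57BL/6 cells with the block alone (change 1.61, adjusted p = 0.131, 0.0152 with the block). For the B cell, NK cell and eosinophil lists, 7, 2 and 2 genes were tested and none was called in any comparison, with or without the block, and no red blood cell marker passed the filter. The part of these cells in the Il1a and Il1b changes was not tested.

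On their representing probes, Il1a and Il1b had the same order of level, with no overlap between neighbours. It ran from C57BL/6 cells with apoA-I through MyD88-null cells with apoA-I and C57BL/6 control cells to MyD88-null control cells. On the intron-crossing Il1a probe the control groups of the genotypes overlapped. The representing probe of Il1rn kept that order of means with overlap at each step. Its intron-crossing probe did not: C57BL/6 control cells were lowest (mean -1.14), below MyD88-null control cells (-0.82). Those control groups did not overlap, as for 10.3% of all genes. On the representing probes of Il18, Il18bp, Il1r1, Il1r2 and Il1rap, neighbouring groups also overlapped. The median change of the 8 genes with apoA-I was 0.54 in null cells, against 0.05 over all genes tested, and 0.51 in C57BL/6 cells, against 0.00. Between genotypes the median was -0.70 with apoA-I, against 0.07 over all genes, and -0.68 in control cells, against 0.02. With apoA-I all 8 genes had a negative fitted change in null cells, while 58.3% of all genes were higher. Of the 8, only Il1a and Il1b were called. The changes of Il1rn (-0.27, SE 0.294), Il18 (-0.07, SE 0.256) and Il18bp (-0.05, SE 0.397) were smaller than their SE. Those of Il18 and Il18bp turned positive in some other settings. These comparisons share samples, and the 8 genes were chosen with earlier results of these data known. The values of the 8 genes and of all genes are therefore given side by side only.

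**Figure D4:**
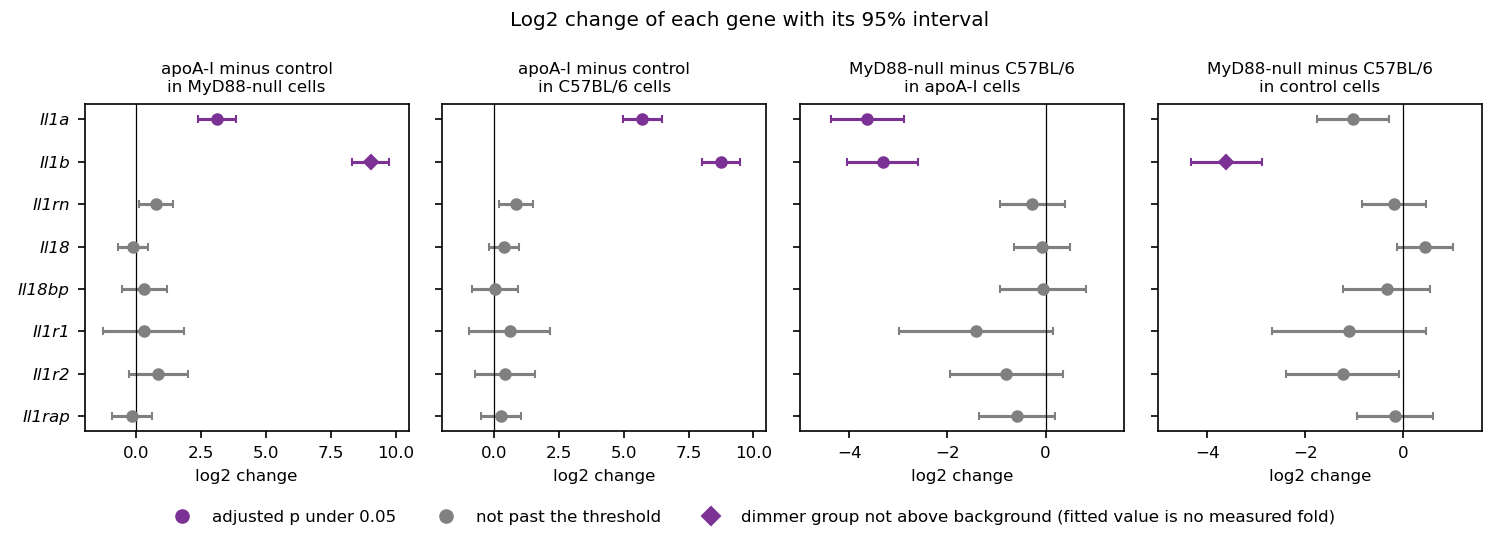
Log2 change (horizontal axes) of the 8 genes with 95% intervals for apoA-I minus control in MyD88-null cells and in C57BL/6 cells, and for MyD88-null minus C57BL/6 cells with apoA-I and in control cells. Il1a and Il1b lie apart from the other 6 genes in the first 3 panels, but in control cells Il1a (-1.02) lies among them (Il1r1 -1.11, Il1r2 -1.24). The other 6 genes' apoA-I changes were -0.17 to 0.85 in null cells and 0.03 to 0.83 in C57BL/6 cells. Diamonds mark fitted values against a group below background.

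Of 18 genes of interleukin-1 receptor signalling, all tested, 1 was called with apoA-I in each genotype. It was Peli1, which encodes a ubiquitin ligase acting on IRAK proteins, with changes of 2.47 in null cells (adjusted p = 0.000914 in limma) and 2.49 in C57BL/6 cells (5.64-fold, SE 0.268, adjusted p = 0.00142). A second Peli1 probe gave 2.82 and 2.55 and was called in both, and another gave 2.02 and 1.79 and was not. The list's median change was 0.17 in null cells and 0.16 in C57BL/6 cells. With the replicate block Myd88 was also called higher in null cells with apoA-I (change 1.02, adjusted p = 0.292, 0.00695 with the block). No gene of this list was called between genotypes without the block.

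Of 17 genes for processing and release of interleukin-1 and interleukin-18, 15 were tested. In null cells with apoA-I, 2 were called higher: Casp4, an inflammatory caspase gene, by 1.82 (adjusted p = 0.000405 in limma), and Mefv, the pyrin gene, by 3.40 (SE 0.490, adjusted p = 0.00627). In C57BL/6 cells Casp4 was called higher by 0.96 (SE 0.171, adjusted p = 0.0325), and Mefv had a change of 2.35 (adjusted p = 0.0709, 0.00743 with the replicate block). Nlrp3, the inflammasome sensor gene, had changes of 2.34 in null cells (adjusted p = 0.249, 0.00218 with the block) and 2.56 in C57BL/6 cells (adjusted p = 0.212, 0.00205 with the block). Casp1, which encodes the enzyme that cuts both precursors, had changes of 0.12 and 0.11, and Pycard, the adaptor gene, -0.10 and -0.07. Gsdmd, the pore-forming gasdermin D gene, had 0.32 in both. None of these 3 was called, and Aim2 was above background on 0 arrays. Between genotypes Casp4 was called lower in null control cells by a change of -1.18 (adjusted p = 0.0472, but 0.0562 when adjusted among all probes), and Mefv, at -2.29, was called only with the block (adjusted p = 0.229, 0.0215 with the block). Of 15 other interleukin-1 family genes, 9 were tested and none was called in any comparison in limma, with or without the block. Their median change with apoA-I was 0.66 in null cells and 0.31 in C57BL/6 cells. Over all genes tested the 95th percentile of that change was 1.42 in null cells and 0.86 in C57BL/6 cells.

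**Figure D5:**
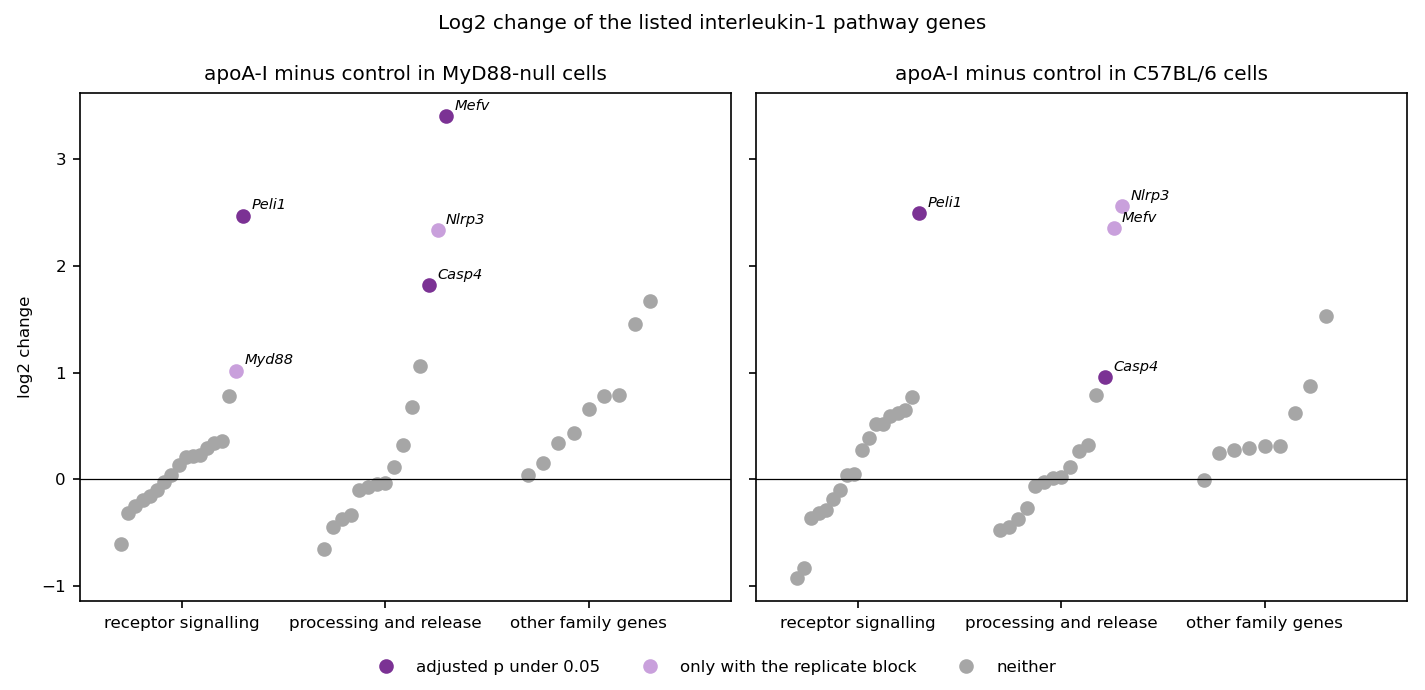
Log2 change with apoA-I (vertical axis) of the tested genes of the 3 pathway lists, each point a gene placed by list and in order of change, in MyD88-null and in C57BL/6 cells. Peli1, at 2.47 and 2.49, stands at the high end of receptor signalling, and Mefv, at 3.40 and 2.35, and Nlrp3, at 2.34 and 2.56, at that of processing and release.

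Over the 12 arrays Il1a and Il1b correlated at a Pearson r of 0.953, as a description across arrays that share groups. The genes most like Il1a in pattern were Il12b (r = 0.984), Csf2 (0.980) and Il6 (0.979). Those most like Il1b were Maff (0.996), Traf1 (0.989) and Tnfrsf1b (0.988). For Il1rn they were Mpp5 (0.934), Senp1 (0.918) and Clic4 (0.912), and for Il18bp Ifitm3 (0.889), Irf7 (0.879) and Itgal (0.877). For Il1r1 they were Ctps (0.990), Cth (0.985) and Itm2a (0.983), for Il1r2 Prrx1 (0.963), Adamts7 (0.960) and Stk39 (0.959), and for Il1rap Tubb4b (0.956), Fam98a (0.941) and Nob1 (0.932). For Il18 they were LOC384179 (0.945), Rpl15 (0.927) and 8430428J23Rik (0.913).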

How the data were processed

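Total RNA (500 ng) of each sample was labelled with Cy3 and hybridised to 1 Agilent array. The deposited scanner files hold each spot's processed intensity, background-corrected by Agilent Feature Extraction 9.5 per the submitters' processing notes. The authors' deposited value table matched log10 processed intensity (r 0.993 to 1.00, column medians 1.82 to 1.87) and served as an alternative, with its normalization and centring not given in the sources used here. Of 45018 spots, 43379 were not controls and gave 41174 probes. Outlier-flagged spots were left out and saturated spots kept. Log2 intensity minus the array's 75th percentile was fitted with limma 3.58.1 (R 4.3.3) over 4 groups of 3 arrays, two-sided, with Benjamini-Hochberg adjustment over 16744 genes. Probes were kept where 1 group or more had every array well above background (24350 probes), and the probe of highest mean stood for its gene. Genes were named through RefSeq accessions and symbols (GRCm38.p6), and 8440 probes kept the file's name. Scripts were tested on simulated data.

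The 8 genes and the pathway and marker lists were chosen with earlier results of these data known. All 8 are named; of the lists, genes called are named, up to 6 a direction, with Myd88, Nlrp3, Casp1, Pycard, Gsdmd and Aim2 named after their values were seen. Like genes are the 3 of highest Pearson r. The series' design gives 3 experiments of 4 samples. Deviations from group means correlated at 0.296 to 0.859 between samples of the same replicate number. Between samples of different number and group the range was -0.812 to 0.547. These ranges overlap, and replicate numbers share slides and scan days in part, so pairing cannot be told apart from array batch. Slides and scan days were tested as batches, and all replicate 3 arrays were of 1 scan day. Those arrays were extracted with software build 9.5.3.1 and the others with 9.5.1.1, so this build cannot be told apart from that scan day.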

Additional observations from a re-analysis of the deposited data

How the results depend on the processing

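The calls of Il1a and Il1b with apoA-I in both genotypes, and between genotypes with apoA-I, held in all 12 fits that left out 1 array. Genes called then were 115 to 186 in null cells, 66 to 156 in C57BL/6 cells, 8 to 13 between genotypes with apoA-I and 6 to 16 in control cells. The replicate block changed no call of the 8 genes but moved the counts to 682 in null cells, 570 in C57BL/6 cells, 38 with apoA-I and 99 in control cells. In the same order, a random slide block gave 659, 755, 44 and 68 genes, and 2 for the difference of responses; a fit of only the groups compared gave 90, 81, 5 and 1; leaving out both samples with conflicting descriptions gave 90, 59, 6 and 2. Scan day as a block gave 357, 323 and 17 genes in the first 3. Scaling to the array median gave 83 and 80 genes in the responses, no filter on dim probes 83 in C57BL/6 cells, and normexp 9 in control cells. Probes above background on all 12 arrays gave 3 genes between genotypes with apoA-I and left out Il1b, so the count of the 8 called became 1, 1, 1 and 0. Treatments taken from the descriptions gave 0, 0, 2 and 2 genes and 0 of the 8. Under them Il1a and Il1b changed by 2.60 and 6.85 in null cells (the Il1b value is set partly against arrays below background and is no measured fold) and by 4.00 and 6.02 in C57BL/6 cells; between genotypes Il1a and Il1b changed by -1.92 and -0.91 with apoA-I, and Il1b by -1.73 in control cells. In control cells the count of the 8 called was 0 under normexp and in the fit of only those groups.

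Some changes that were never called turned sign, and the cause was not tested. In null cells with apoA-I these were Il1rap (normexp 0.018), Il18bp (median scaling -0.14), Il1r1 (median scaling -0.16, slide -0.19, descriptions -0.41, without both samples -0.13), Il1r2 (quantile -0.047) and Il18 (descriptions 0.11, without both 0.014). In C57BL/6 cells it was Il18bp (median scaling -0.038, slide -0.11, descriptions -0.074, without both -0.037). Between genotypes with apoA-I they were Il18bp (slide 0.18, scan day 0.22) and Il18 (descriptions 0.18, without both 0.066), and in control cells Il1rn (median scaling 0.020, slide 0.043, descriptions 0.0091) and Il1rap (median scaling 0.047, descriptions 0.0046). For the difference of responses they were Il1b (normexp -2.03, median scaling -0.10, quantile -0.078, deposited values -0.37), Il18bp (median scaling -0.10), Il1rn (quantile 0.020, deposited values 0.013) and Il1r2 (quantile -0.41, deposited values -0.33, descriptions -0.19). Median scaling moved the median of all genes to -0.40 in null cells, 0.24 between genotypes in control cells and -0.34 for the difference of responses. Leaving out 1 array gave -0.39 to 0.027 for Il18, -0.13 to 0.81 for Il1r1 and -0.45 to 0.0057 for Il1rap in null cells, and -0.25 to 0.36 for Il18bp and -0.0047 to 0.53 for Il1rap in C57BL/6 cells. It gave -0.33 to 0.066 for Il18 and -0.32 to 0.17 for Il18bp between genotypes with apoA-I. For the difference of responses it gave -0.049 to 0.57 for Il18bp, -0.082 to 0.64 for Il1b, -0.99 to 0.22 for Il1r1, -0.026 to 0.88 for Il1r2 and -0.34 to 0.15 for Il1rn.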
